A study of Drosophila melanogaster with 6 samples.

Results

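Suppressor of Hairless, Su(H), bound the left arm of chromosome 2, named 2L, at 447 places in fly embryos, as the peak list for the series gives them. These peaks were chosen by position alone: every peak of the list on 2L was taken, except any with its midpoint between 15034000 and 15048000, the interval set aside as the locus of the Su(H) gene itself. No peak lay in that interval, so nothing was removed. The 447 peaks are part of 4403 in the whole list and of 2074 on the 6 chromosome arms. Positions are those of FlyBase release 5, counted from 1. The list pairs no peak with a gene, and peaks are therefore named by position.

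The list came from chromatin immunoprecipitation followed by sequencing (ChIP-seq) of Drosophila melanogaster embryos, in a series of 3 libraries of Su(H) ChIP DNA and 3 of input DNA. Which of these libraries entered the list is not stated. All 6 libraries were from the strain labelled Y cn bw sp, at the stage labelled Embryo 0-8 and of unknown sex. The flies carried y[1] and oc[R3.2], then Gr22b[1] and Gr22d[1] together with cn[1] and CG33964[R4.2], with bw[1] and sp[1] beside them. Also present were LysC[1] and lab[R4.2], as well as MstProx[1], GstD5[1] and Rh6[1]. The ChIP libraries were made with a rabbit polyclonal antibody against amino acids 259 to 594 of Su(H). Embryos were fixed in 1.8% formaldehyde for 15 min, and the protocol text gives an egg laying of 8 to 16 hours, which differs from the stage label. The list gives 1 score per peak, called the MACS score here after its source column, with no value for any library. The ChIP and input libraries could therefore not be set side by side, no spread between replicates could be formed and no difference below was tested. Intervals are exact 95% binomial intervals for shares and order-statistic intervals for medians, and they cover counting error only. They treat peaks as independent, which close neighbours are not. The intervals of densities and of shares with a neighbour are therefore too narrow. The read depth behind the peaks is unknown.

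Su(H) is the DNA-binding protein through which the Notch receptor reaches its target genes. When Notch is activated, its intracellular domain enters the nucleus and joins Su(H) and the co-activator Mastermind. Without that signal, Su(H) is held with Hairless and co-repressors at many of the same genes. Target enhancers often carry several Su(H) sites close together. In release 5 the coordinates of 2L run from the telomere to the centromere, so the high coordinates lie next to pericentric heterochromatin, the compact, repeat-rich DNA around the centromere.

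The peaks of 2L were mostly weak and narrow, with a short tail of strong ones. Their MACS scores ran from 6.57 to 269.76 with a median of 13.04 (interval 12.46 to 13.53), and the middle of the distribution lay between 10.63 and 17.13 (quartiles). Medians on the other large arms were 13.35 on 2R, 13.47 on 3L, 13.81 on 3R and 13.91 on X. The interval of 2L overlapped those of all 4, although its median and both quartiles were the lowest of the 5 arms. Only 34 of the 447 peaks, 7.61% (5.32 to 10.5%), reached the top 10% of arm scores, at 27 or above. Over all 6 arms the same threshold was met by 10.1% of peaks, and the other large arms lay between 8.86% on 2R and 12.5% on 3R. Of the arms' 100 highest scores, 15 were on 2L, and 2L held 21.6% of all arm peaks but 17.6% of the 20% with the highest scores. The interval of the share on 2L overlapped that of each of the other large arms.

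Widths on 2L were also at the low end, with a median of 340 bp (interval 317 to 374 bp) on 2L and medians from 349 to 360.5 bp on the other large arms. The widest peak of 2L spanned 2265 bp, and peaks of at least 1 kb made up 3.58% of the arm (2.06 to 5.75%), where 4.63% of all arm peaks were that wide. At the lower limit, 11 peaks or 2.46% were exactly 201 bp wide, the smallest width in the list, against 2.22% over all arms. Those 11 scored between 8.49 and 14.99. In all, 189783 bp of 2L lay under a peak, or 8.41 bp per kb of the 22.6 Mb from the first to the last peak.

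**Figure D1:**
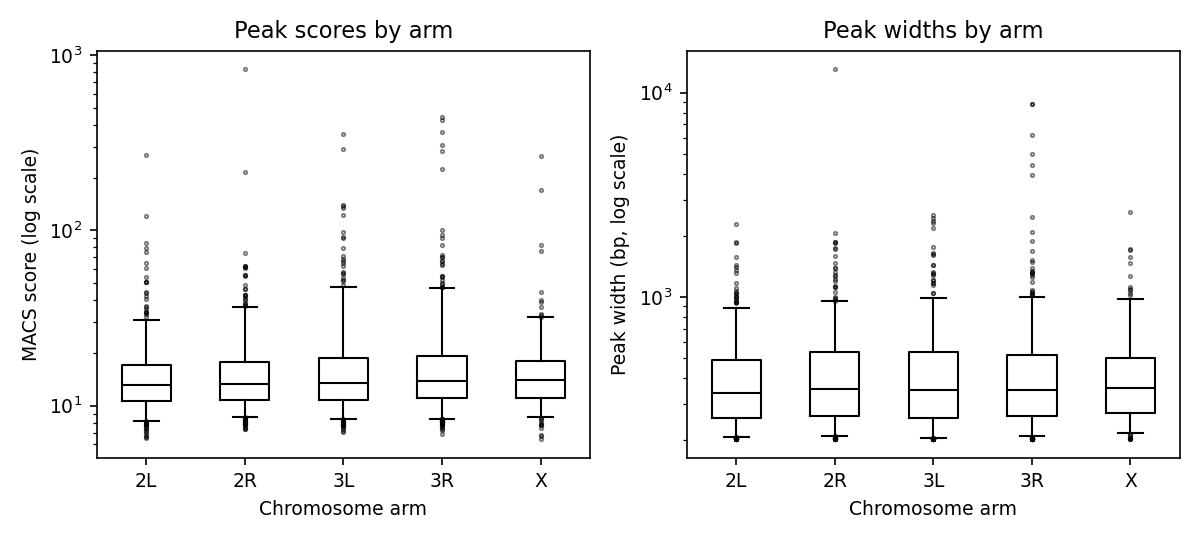
MACS score (left, log scale) and peak width in bp (right, log scale) of the peaks on each large chromosome arm, with 447 peaks on 2L. Boxes give the quartiles and the median, whiskers reach from the 5th to the 95th percentile and dots are peaks beyond them. The boxes of 2L sit slightly lower than the rest, with medians of 13.04 and 340 bp.

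The strongest Su(H) peak of the arm lay at 18945810 to 18948074 and scored 269.76, 2.24 times the next score on 2L. It was also the widest peak of the arm and ranked 9th among all 2074 arm peaks. A companion peak at 18944417 to 18945080 (score 34.19) lay 729 bp to its distal side, and no further peak followed for 67269 bp on the other side. The runner-up, 2181338 to 2182363, scored 120.39 over 1026 bp, and had a single weak neighbour (12.45) 807 bp away. Both were the only peaks of 2L above 100, where 2R and X also had 2 each, 3L had 6 and 3R had 7.

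The peaks ranked 3 to 15 were between 550 and 1849 bp wide, and some stood alone. The third score, 84.69, belonged to 9446382 to 9446966, 585 bp wide. It stood alone, 8.091 kb from a run of 4 peaks on its proximal side and after 514.749 kb without a peak on its distal side. The fourth, 18150938 to 18151650 (79.72), had a partner (15.02) 228 bp away, and the fifth, 5001154 to 5001703 (75.11), was 550 bp wide in a run of 3.

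Of the 20 highest-scoring peaks, 8 had no neighbour within 5 kb and 12 fell into 10 runs. That is near the share of the whole arm, where 196 of 447 peaks stood alone. The isolated ones included 5870582 to 5871630 (score 65.42), 15370279 to 15370847 (60.59), 7495577 to 7496283 (50.84) and 1076412 to 1077064 (50.57). Farthest from any other peak was the one at 7495577, whose nearest neighbour lay 119.917 kb off. The remaining isolated peaks were 21828326 to 21829058 (44.24), 10545467 to 10546203 (36.88) and 14234027 to 14234626 (36.67). The distance to the nearest peak thus ran from 8.091 to 119.917 kb for these 8.

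The other strong peaks within runs were 12003054 to 12004120 (53.9), 6229190 to 6229790 (50.46), 2749413 to 2750117 (43.66), 8826557 to 8828405 (42.12) and 4997209 to 4998211 (40.59). The last of the 20 were 11541978 to 11542709 (35.68) and 11796947 to 11797487 (34.03), and the next peak down, at 12005501, scored 33.93. Together the 20 carried 17.9% of the summed score of the arm. They ranged from 541 to 2265 bp in width with a median of 710 bp. Below 10 Mb lay 10 of them, close to the share of all 2L peaks there. None lay beyond 22 Mb, where only 17 of the 447 peaks lay.

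**Figure D2:**
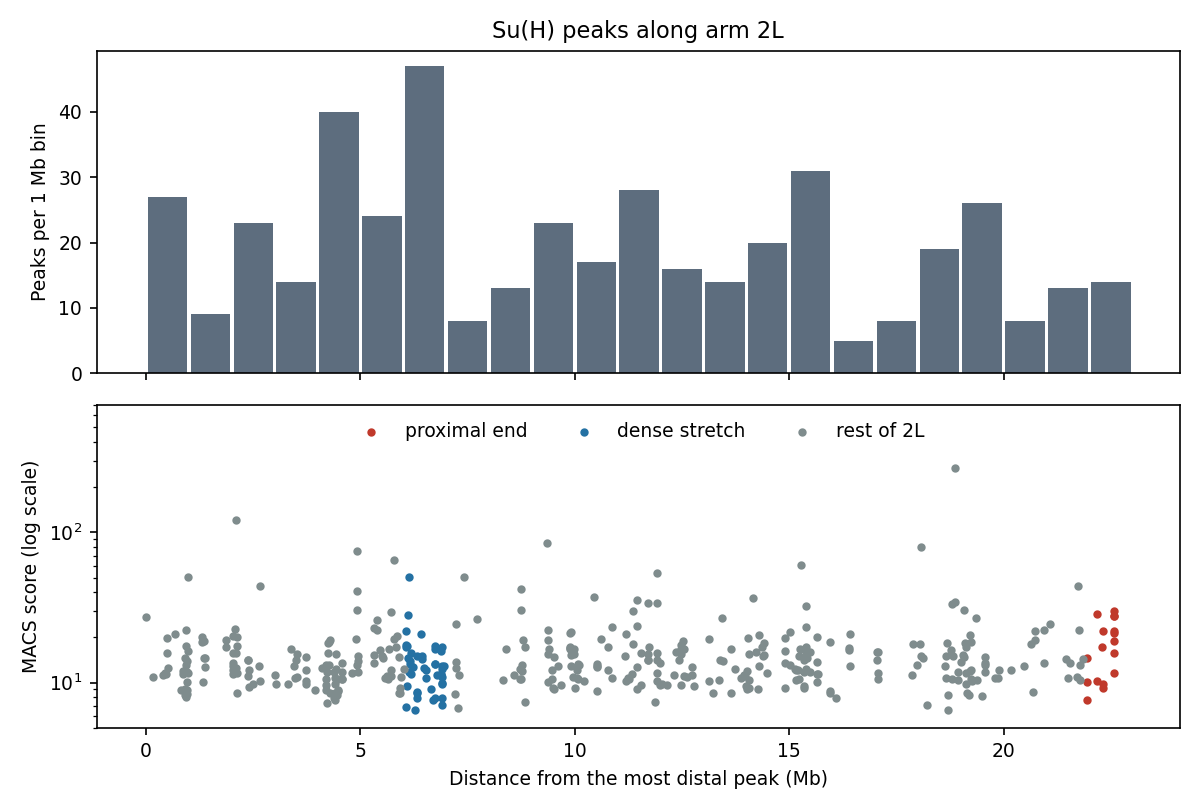
Number of Su(H) peaks per 1 Mb bin (top) and MACS score of each peak on a log scale (bottom) against the distance in Mb from the most distal peak of 2L; the last bin is only partly covered by the arm's peaks. The fullest bin holds 47 peaks, while the highest score, 269.76, falls in a bin with 19.

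Score and width rose together across peaks, but not closely (Spearman 0.55 over 447 peaks that share the same libraries, given as a description). The median score was 9.17 at 201 bp, 11.3 from 202 to 299 bp, 12.94 from 300 to 499 bp, 17.2 from 500 to 999 bp and 27.9 at 1 kb or more. The spread within a class was large. Of the 15 peaks scoring 40 or more, 9 were narrower than 750 bp and 6 were at least 1 kb wide.

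Conversely, 4 of the 16 peaks of at least 1 kb scored below 20. These were 14491863 to 14492963 (18.47), 11437965 to 11439279 (18.07), 6140361 to 6141790 (17.13) and 22021205 to 22022376 (14.57). They were low only beside the other broad peaks, as all 4 scored above the arm median of 13.04. After the strongest peak, the widest were 8826557 to 8828405 at 1849 bp, 22260831 to 22262674 at 1844 bp, 11543007 to 11544578 at 1572 bp and 6140361 to 6141790 at 1430 bp. All but 1 of the 16 broad peaks belonged to a run, against 56.2% of all 2L peaks, the exception being 5870582 to 5871630. Of the 9 narrow peaks scoring 40 or more, 5 stood alone, too few to set apart from the 196 of all 447 peaks. Of all 15 peaks scoring 40 or more, 6 stood alone.

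**Figure D3:**
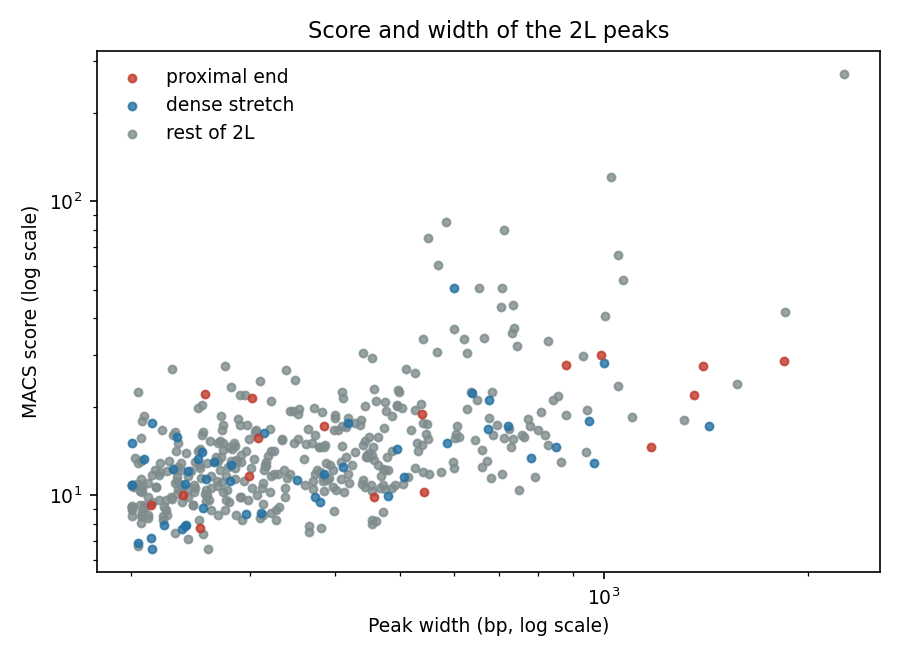
MACS score against width in bp, both on log scales, for the 447 peaks of 2L, each dot a peak. Colours mark the 17 peaks of the proximal end, the 46 of the dense stretch and the rest; the 20 highest scores belong to peaks of 541 to 2265 bp, 1 of them in the dense stretch.

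Most groups of Su(H) peaks on 2L were pairs. Chained across gaps of up to 5 kb, 251 peaks (56.2%, 51.4 to 60.8%) formed 94 runs and 196 stood alone. The share was 31.9%, in 51 runs, when peaks across gaps of up to 1 kb were joined beforehand, and 42.3%, in 36 runs, in the top 50% of arm scores. Over all 6 arms 51.0% of peaks had such a neighbour, with 43.1% on 3L and 52.1% on 3R as the lowest and highest of the other large arms. Of the 94 runs, 64 were pairs, 12 held 3 peaks, 10 held 4, 3 held 5, 4 held 6 and 1 held 8. Pairs took up 28.6% of the peaks of 2L (24.5 to 33.1%) and 22.7% of all arm peaks, whereas runs of 3 or more took up 27.5% on 2L and 28.3% over all arms. The balance was the other way on 2R, with 15.6% of peaks in pairs and 36.3% in longer runs. It was also the other way on 3R (23.4% and 28.7%) and X (22.7% and 27.7%). On 3L pairs led, with 23.0% against 20.0% in longer runs. Neighbours could lie very close: 49 of the 446 gaps on 2L were under 250 bp and the smallest was 50 bp.

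Peaks within runs differed little from single ones in score, with medians of 13.29 in runs (interval 12.63 to 14.15) and 12.5 for single peaks (11.76 to 13.47). They were wider at the median, with 380 bp in runs (322 to 416 bp) against 319.5 bp for single peaks (291 to 352 bp), and these intervals overlapped. Scores of adjacent run members were weakly related (Spearman 0.25, a description). Over the 157 adjacent pairs the higher score was 1.39 times the lower at the median (quartiles 1.13 and 1.74), and it was over 2 times the lower in 24 pairs. Among the 30 runs of 3 or more, the strongest peak was at an edge in 18, where edges made up 52.6% of positions on average over these runs, and it was also the widest in 12.

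By summed score, the leading run was the strongest peak with its companion (303.95), followed by a run of 8 at the proximal edge of the arm (174.87, described below). The third, 4997209 to 5004387, held just 3 peaks, and each was strong, at 40.59, 75.11 and 30.33. The fourth, 12003054 to 12012495, held 6 peaks whose scores were 53.9 and 33.93 at its distal end and between 10.26 and 15.71 in the other 4. The fifth was the pair at 2181338 to 2183448 (132.84), of which the strong peak made up 90.6%. In the run of 8 at the proximal edge, by contrast, the strongest peak made up 17.2% of the sum.

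The remaining runs of at least 5 peaks were weaker. The run from 15477047 to 15490975 was the longest of the arm at 13.9 kb, and its 5 peaks scored from 12.41 to 32.15. At 2112783 to 2119071, 6 peaks scored from 11.42 to 20.3, and at 2196735 to 2202889, 5 peaks scored from 8.53 to 20.26. These last 2 runs flank the pair at 2181338, and with a lone peak at 2164601 to 2165096 (22.84), 14 peaks fell within 90.1 kb. The runs at 6977415 to 6983015 and 4481251 to 4488809 each held 6 peaks with no score above 12.89 and 11.79.

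**Figure D4:**
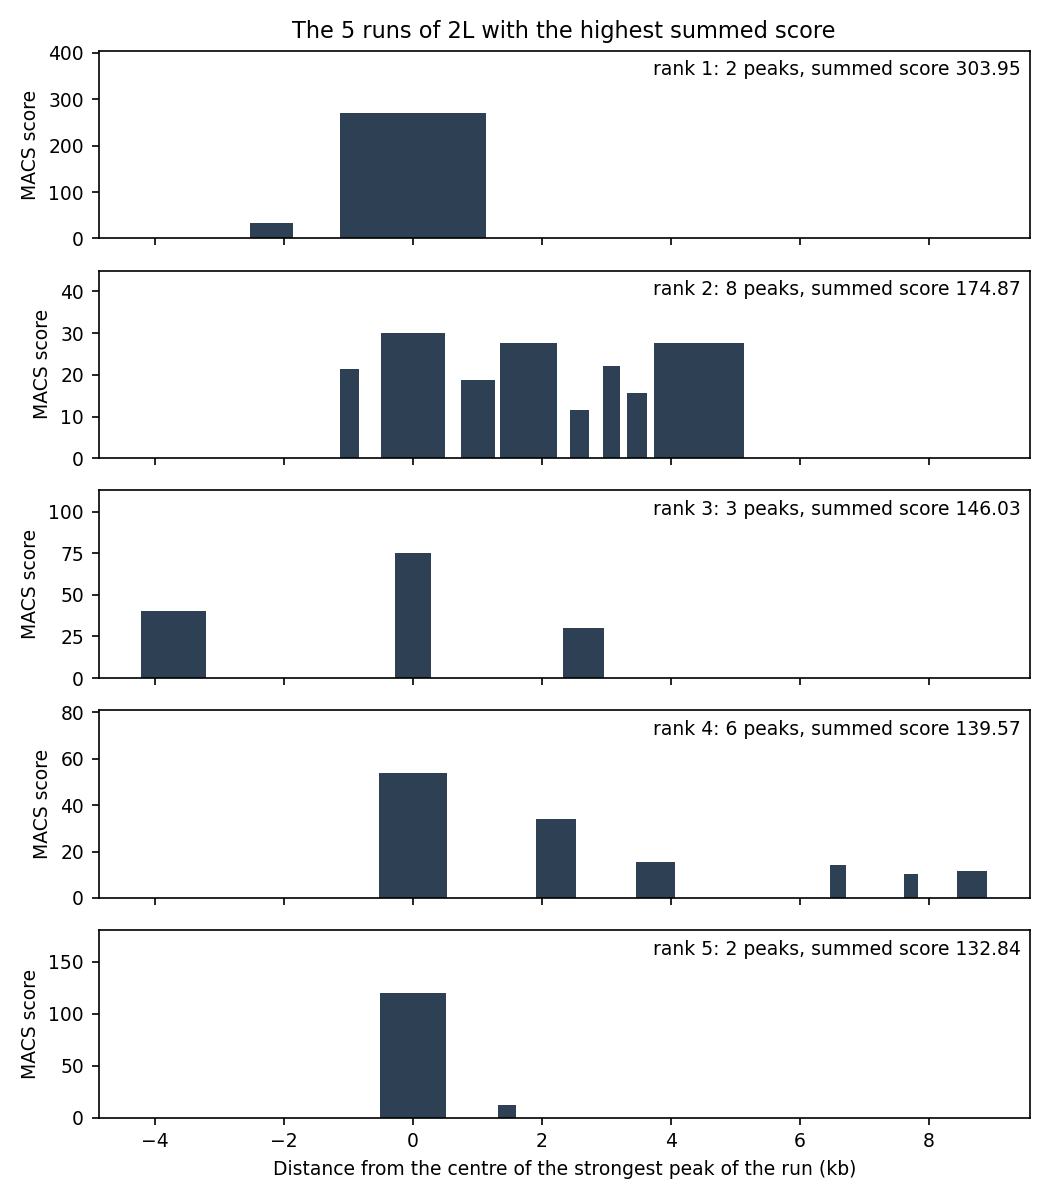
The 5 runs of 2L with the highest summed MACS score, each peak drawn as a bar of its own width at its distance in kb from the centre of the run's strongest peak, with its MACS score as height (vertical scales differ between panels). The run ranked 1 has summed score 303.95 from 2 peaks, and the run ranked 2 spreads 174.87 over 8 adjacent peaks of 11.64 to 30.0.

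Density along the arm varied severalfold. In 1 Mb bins counted from position 1, the 22 full bins held 19.5 ± 10.1 peaks (SD over bins), from 6 to 48. The fullest were 6000001 to 7000000 with 48 peaks, 4000001 to 5000000 with 35, and the bins starting at 5000001, 15000001 and 19000001 with 28 each. These 5 bins held 37.4% of the peaks of the arm. The emptiest were 20000001 to 21000000 with 6, 17000001 to 18000000 with 7 and 16000001 to 17000000 with 8. Full bins did not have higher median scores: the median scores of the bins lay between 10.79, in the bin with 35 peaks, and 15.5, in the bin with 6, and their Spearman correlation with the number of peaks was -0.28 (22 bins of 1 list, a description).

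The dense stretch from 6.1 to 7.1 Mb held 46 peaks, against 18.6 peaks per Mb on the rest of the arm. It was picked for its count, so its density ratio of 2.48 (exact interval 1.78 to 3.36) is a description. With gaps of up to 1 kb joined, 31 regions remained and the ratio was 2.09. The scores of its peaks were close to those of the rest: the median score was 12.54 (11.17 to 14.32), against 13.04 (12.55 to 13.91) outside. The top 10% of arm scores was reached by 2 of the 46 (4.35%, 0.531 to 14.8%), against 7.98% outside and 10.1% of all arm peaks, both within that interval. Median widths were 303.5 bp inside and 344 bp outside, with overlapping intervals.

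Within the stretch, 31 of the 46 peaks (67.4%, 52.0 to 80.5%) had a neighbour within 5 kb, against 54.9% on the rest of the arm and 51.0% over all arms. A stretch picked for its count will tend to hold close neighbours, so this share is a description and not a separate trait. The 31 peaks formed 11 runs. The strongest was 6228230 to 6232974, where a peak of 50.46 was flanked by peaks of 11.79 and 13.26. At 6140046 to 6142947, 3 nearly touching peaks covered 89.0% of 2.9 kb and scored no more than 17.86. The runs at 6412747 to 6416758 with 3 peaks, 6977415 to 6983015 with 6 and 6994495 to 6996797 with 4 had highest scores of 14.99, 12.89 and 17.2.

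The distal part, up to 6.6 Mb, had 24 peaks with a median score of 14.2, and the proximal part had 22 with a median of 11.4. All 4 peaks scoring over 20 lay in the distal part. A peak-free interval of 120.582 kb from 6613131 to 6733712 separated most of the peaks of the proximal part from the distal part. Which stretch of 2L counts as densest depended on the window. The fullest window of 0.5 Mb lay at 4170001 to 4670000, with 31 peaks of median score 10.65 and none above 19.32, and the fullest 2 Mb, with 78 peaks, lay at 4270001 to 6270000. The fullest 1 Mb window of 2L, 6030001 to 7030000, held 48 peaks, and that of 2R also held 48, of 3R 45, of 3L 44 and of X 40. In these windows the median score on 2L was 12.39, against 12.2 on X, 12.62 on 3L, 14.57 on 2R and 16.64 on 3R.

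The proximal end beyond 22 Mb held 17 peaks within 0.666 Mb. That is 25.5 peaks per Mb, against 19.6 before 22 Mb, and the ratio of 1.3 had an exact interval of 0.751 to 2.11. The direction did not hold throughout. The ratio was 0.669 with gaps of up to 1 kb joined and 0.871 with the most distal boundary tried. Without the run of 8 peaks described below it was 0.689. It stayed above 1 with the middle boundary tried (1.13) and in the top 50% of arm scores (1.84). With the boundary moved closest to the centromere it was 2.46, but the only peaks beyond that boundary were the run of 8. In covered length the end stood further apart, with 17.2 bp under peaks per kb, against 8.14 bp per kb before 22 Mb. The span ends at the last peak, as the length of the arm was not used, which raises both values for the end. The whole bin from 22000001 to 23000000 held the same 17 peaks, with 11.438 kb covered, where full bins held 19.5 peaks on average. Whether the end is denser in peaks thus depends on where the span is taken to end. The median score was 17.13 (interval 10.21 to 22.02), against 12.99 (12.45 to 13.47) before 22 Mb.

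Broad peaks were frequent there: 4 of the 17 (23.5%, 6.81 to 49.9%) were at least 1 kb wide, against 12 of 430 (2.79%, 1.45 to 4.82%) before 22 Mb and 4.63% of all arm peaks. The top 10% of arm scores was reached by 4 of the 17 (23.5%, 6.81 to 49.9%). Before 22 Mb it was reached by 30 of 430 (6.98%), and over all arms by 10.1%, both within that interval. The highest score beyond 22 Mb, 30.0, ranked 27th on the arm. A neighbour within 5 kb was present for 15 of the 17 peaks (88.2%, 63.6 to 98.5%), against 54.9% before 22 Mb and 51.0% over all arms. As 8 of these peaks belonged to the same run, that interval is too narrow.

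The 17 peaks fell into 4 groups when gaps of up to 20.562 kb were bridged, wider than the 5 kb used for runs. At 5 kb the peaks at 22028752 (239 bp wide) and 22382149 (386 bp wide) stood alone. Nearest the centromere, 8 peaks lay side by side between 22659841 and 22666109 and covered 79.3% of 6.27 kb. Their scores, in order, were 21.43, 30.0, 18.85, 27.67, 11.64, 22.02, 15.67 and 27.59, so higher and lower scores alternated along the run. It was the most populous run of 2L and, with gaps of up to 1 kb joined, the widest region of the arm.

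Next came 4 peaks between 22382149 and 22407182, led by a peak of 1357 bp at 22403989 (21.96) and a lone one at 22382149 (17.13). A pair followed at 22259385 to 22262674, whose broad member of 1844 bp scored 28.48. The last group, 22021205 to 22028990, held 3 peaks of 7.7, 10.02 and 14.57. Every group had a peak of at least 1 kb, whereas 3 of the 4 peaks in the top 10% of arm scores lay in the run of 8. Without that run, the median score of the remaining 9 peaks was 10.21, below the 12.99 of the rest of the arm, while the median width stayed at 458 bp, against 338.5 bp.

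**Figure D5:**
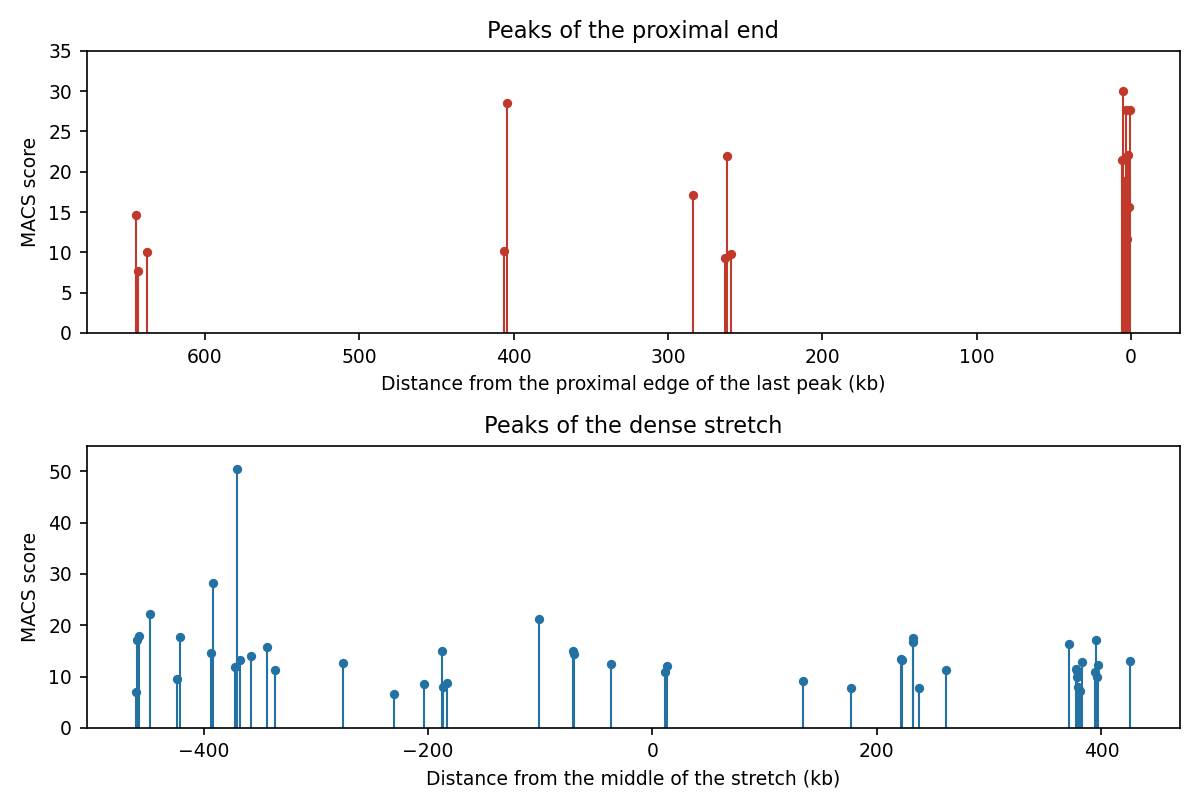
MACS score of each peak in the proximal end, by distance in kb from the proximal edge of the last peak (top, 17 peaks), and in the dense stretch, by distance in kb from its middle (bottom, 46 peaks). The 8 peaks of the proximal run crowd at distance 0 with scores up to 30.0, and the dense stretch has a single peak above 30, at 50.46.

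The most proximal 1 Mb of each arm, measured from its most proximal peak, gave a mixed picture. On 2L it held 23 peaks with a median score of 15.67, against 12.99 on the rest of the arm, and 17.4% of them were at least 1 kb wide, against 2.83%. On 3L the median was 15.49 at the proximal end, against 13.36 on the rest, and the share was 27.3%, from only 11 proximal peaks, against 4.49%. On 2R the median was 15.48 at the proximal end, against 13.3 on the rest, with shares of 13.0%, against 4.09%. The 3R end had a median score of 14.87, against 13.69, but few broad peaks (3.03%, against 5.30%), and the 9 proximal peaks of X had a median of 12.62, below the 13.91 of the rest. The separate heterochromatin scaffold 2LHet, which release 5 places on the same arm, carried 3 peaks, with scores of 14.08, 23.59 and 101.71 and widths of 388 to 805 bp.

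Large parts of 2L had no called Su(H) peak. The gap between adjacent peaks was 13.2 kb at the median, against 14.6 kb on 3R to 36.0 kb on X among the other large arms. On 2L 30 of 446 gaps (6.73%) exceeded 200 kb, against shares from 5.19% on 2R to 17.4% on X. The longest gaps of 2L ran from 17149555 to 17950468 (800.914 kb) and from 16515771 to 17144929 (629.159 kb). Between them, a run of 5 peaks at 17144930 to 17149554 with scores of 10.49 to 16.04 was the only binding called in 1.43 Mb. The next longest were 7800103 to 8423809 (623.707 kb), 8931633 to 9446381 (514.749 kb), which ends at the third strongest peak of the arm, and 1462482 to 1951214 (488.733 kb). On the other large arms the longest gap lay between 536.298 kb on 3L and 746.929 kb on 3R.

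The locus of Su(H) itself fell within a gap of 123.221 kb. The nearest peaks were 14991055 to 14991427 (score 19.86), 42.6 kb to the distal side of the interval set aside for it, and 15114649 to 15115502 (21.66), 66.6 kb to the proximal side. With the depth unknown, the absence of a peak shows only that none passed the threshold of the peak calling.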

How the data were processed

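Per the file headers, the peaks are on FlyBase release 5 and come from MACS. BWA, MACS2 and CASAVA (1.7.0.2, 1.7.0.3), with the build BDGP5, are named per the submitters' processing notes, with no role or order. The authors deposited 1 score per peak, whose scale is not stated, so it was used to describe and rank peaks within the list, and sums of scores rest on that scale. For the calling threshold, the use of the input libraries and any pooling of replicates, the sources used here give nothing, and the list holds no value per library.

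Peaks on 2L were taken as deposited. Runs chain peaks across gaps of up to 5 kb between edges. Peaks were assigned to bins, windows (moved by 10 kb) and stretches by midpoint, and densities use the length between the outermost peaks. Spearman coefficients have no p. Alternatives were other gaps, windows and boundaries, joining of gaps of up to 1 kb, and score minimums. No test was made. Run, joining and window counts were checked on simulated data. The members and lists were chosen with earlier results of these data known. Named were the 20 highest scores, runs of at least 5 peaks or of the 5 highest sums, runs of 3 or more in the dense stretch, the 10 highest scores beyond 22 Mb, the 5 widest peaks, the 5 longest gaps and the 5 fullest and 3 emptiest bins; the broad peaks below 20, 2LHet and the peaks near the Su(H) locus were chosen after their values were seen. The gene table used here is of Release 6, and positions of different releases were not mixed, so no gene or sequence is given. Calculations used Python 3.11.15, numpy 2.4.6, pandas 2.3.3 and scipy 1.17.1.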

Additional observations from a re-analysis of the deposited data

How the results depend on the processing

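Restricted to peaks at or above the median score of all arms, 2L had a median score of 17.37 and a median width of 455.5 bp; with gaps of up to 1 kb joined, the median width was 383 bp. The share of arm peaks on 2L was 17.6% in the top 20% of scores. Of the 20 strongest peaks, 6 were among the 20 widest. The share of peaks with a neighbour was 43.8% at gaps of up to 2 kb, 79.6% at 20 kb, 31.9% after joining (51 runs) and 42.3% in the top 50% of scores (36 runs). The density ratio of the proximal end was 2.46 with the most proximal boundary tried, beyond which only the run of 8 peaks lay. It was 0.871 with the most distal boundary and 0.669 after joining, where the median width of the end was 1669 bp. Without the run of 8 peaks, an alternative chosen after seeing the data, the ratio was 0.689. It thus lay on either side of 1. In all, 29 values, 0.871 among them, stayed within their counting intervals or within 1.5 times the count, and 15 did not. These totals do not measure stability. Keeping peaks of the Su(H) locus could change nothing, as none lay there, and the fullest windows were picked for their counts. Among the 29 is also the median score of the proximal end without the run of 8 peaks. It was 10.21, below the 12.99 of the rest of the arm, against 17.13 with that run. No paired analysis was possible because peaks are listed without their replicates, and leaving out single libraries was impossible for the same reason. The unknown depth limits what a missing peak can show.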
